A study of Mus musculus with 12 samples.

Results

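Among genes that changed 2-fold or more, OI pretreatment lowered far more than it raised in PM-exposed macrophages labelled Acod1-/-. Most of the cell division, antiviral and cytokine genes listed and tested fell, and NRF2 target genes rose. OI is 4-octyl itaconate, PM is particulate matter (an urban dust), and the cells were bone marrow-derived macrophages (BMDMs) grown in M-CSF. The comparison uses 4 of the 12 libraries of the series, chosen by their labels, 2 from Acod1-/- BMDMs given OI+PM and 2 from Acod1-/- BMDMs given PM. Both groups carry the strain label C57BL/6NJ-Acod1em1(IMPC)J/J, and both received PM at 20 μg/cm2 for 24 hours. The OI+PM group also received OI at 0.25 mM for 2 hours before PM. Acod1-/- Control, given vehicle, shows the level without PM, and the WT PM and WT OI+PM groups, labelled C57BL/6 and given as C57BL/6NJ in the study's methods, show the same treatment in cells that carry Acod1. OI without PM was not analysed here. Nothing in the labels says that the libraries of a group came from separate mice or cultures, so p-values measure the spread between libraries, which may be technical.

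Itaconate is made in mitochondria by the enzyme ACOD1, which converts cis-aconitate, an intermediate of the TCA cycle. Activated macrophages strongly induce its gene, Acod1. OI is an ester of itaconate that enters cells and can modify cysteines of KEAP1, the protein that marks the transcription factor NRF2 for degradation. NRF2 drives genes of glutathione synthesis and NADPH supply, NF-kB drives many cytokine genes, and interferon signalling, through factors such as STAT2 and IRF9, drives antiviral genes. Cells without ACOD1 do not make their own itaconate, so the comparison asks what the added compound does when that source is absent.

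The 4 libraries held 33942254 to 34601719 counts, against 33616577 to 36817898 over all 12. Genes entered the test with a CPM (counts scaled to library size) over 1.5 in 2 or more of these libraries, which left 10858 of 48795. Levels below are normalised CPM, scaled by edgeR's TMM factors, and serve to compare libraries for a gene and not genes with each other. The log2 difference between replicates had an SD across genes of 0.155 for PM and 0.152 for OI+PM. A gene was called, or counted as a differentially expressed gene (DEG), where it changed by 2-fold or more and its Benjamini-Hochberg adjusted p in the quasi-likelihood test of edgeR did not exceed 0.05. Where groups are said to be separate or without overlap, this only describes the values of a gene. With 2 libraries per group it is common: both Acod1-/- PM libraries lay above both Acod1-/- Control libraries for 38.2% of genes tested.

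Acod1 was measured first, as the targeted gene. It stood at 107 and 94.1 in the libraries labelled Acod1-/- PM and at 24.4 and 26.7 in those labelled Acod1-/- OI+PM, against 1.26 and 1.23 in Acod1-/- Control. WT PM held 181 and 171 and WT OI+PM 32.5 and 56.4. Reads from the gene (chr14:103046977-103056573 of GRCm38, plus strand) were thus counted in every library labelled Acod1-/-, and counts summed over a gene cannot show whether they cover the disrupted part, so they do not check the genotype. The transcript was lower with OI by 1.98 on the log2 scale (SE 0.21, edgeR adjusted p = 4.74e-05), with no overlap between groups.

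Macrophage genes were present in all 4 libraries. Cd68, a lysosomal glycoprotein of macrophages, stood at 1449.8 and 1315 with PM and 1409 and 1341 with OI+PM, and the groups overlapped. Csf1r, the receptor for M-CSF, was lower by 0.49 on the log2 scale (SE 0.06, edgeR adjusted p = 0.000112), less than 2-fold. Of 14 macrophage identity genes 5 were called lower and 0 higher, against a background of 7.40% of genes tested called lower, and the median log2 fold change was -0.53 against 0.003 over all genes tested. Those called lower included Cx3cr1, Aif1, Fcgr1 and Mertk, and Cx3cr1, the fractalkine receptor, fell from 11.6 and 10.7 to 0.241 and 0.491, a log2 fold change of -4.92 (SE 0.24, edgeR adjusted p = 1.55e-07). Cx3cr1, 1 of the 5, passed the filter through PM alone, so it had to be lower. In bulk RNA, fewer cells of a type and less RNA per cell cannot be told apart. The 8 dendritic and mast cell genes and the 9 fibroblast, endothelial and erythroid genes were all below the limit for testing, and the T cell marker Cd3e and the B cell marker Cd79a had no count. Of 9 neutrophil genes 2 were tested, S100a8 at 13.8 and 11.7 with PM and 31.7 and 32.4 with OI+PM and S100a9 at 3.23 and 3.31 with PM and 1.02 and 1.04 with OI+PM, which moved in opposite directions. S100a9 passed the filter through PM alone, so it had to be lower. S100a8 was not called without PM replicate 2 (edgeR adjusted p = 0.0626), and the defining marker Ly6g stood at 0.0301 and 0 with OI+PM and at 0 with PM. The summed level of the neutrophil list was 18.7 and 17.6 with PM and 33.8 and 34.1 with OI+PM, and that of 10 T, B and NK cell genes was 12.1 and 11.1 and 92.03 and 106, nearly all of it from Ighm. Other properties of the libraries moved with the groups. The 10 most counted genes held 14.2 and 13.7% of counts with PM and 17.5 and 17.8% with OI+PM, mitochondrial genes held 1.61 and 1.58% and 1.85 and 1.87%, and 18326 and 18404 genes had at least 1 count with PM against 17904 and 17749 with OI+PM. Their part in the results was not tested.

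Of the 10858 genes tested 1002 were DEGs (9.23%), 199 higher (1.83%) and 803 lower (7.40%) in Acod1-/- OI+PM than in Acod1-/- PM. At the adjusted p alone, with no fold threshold, 1571 were higher and 2216 lower. A change of at least 16-fold was found for 96 DEGs that fell and 0 that rose, and the median log2 fold change was -1.85 among those that fell and 1.32 among those that rose. Genes could pass the filter through 1 group alone, which favours large changes among them: 292 of the 803 were below 1.5 CPM in both OI+PM libraries and 39 of the 199 in both PM libraries, so these sizes are a description. Among the gene lists this held for 11 called mitosis genes, 6 replication genes, 5 antiviral genes and 3 cytokine genes. It also held for 2 called genes each of the G1, MHC class II and alternative activation lists. The macrophage identity, matrix and neutrophil lists had 1 such gene each. All of these had to be lower. With CPM above 1.5 required in all 4 libraries, 143 were higher and 492 lower. Scaling by total counts moved the median of all genes from 0.003 to -0.066 and gave 163 higher and 862 lower.

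**Figure D1:**
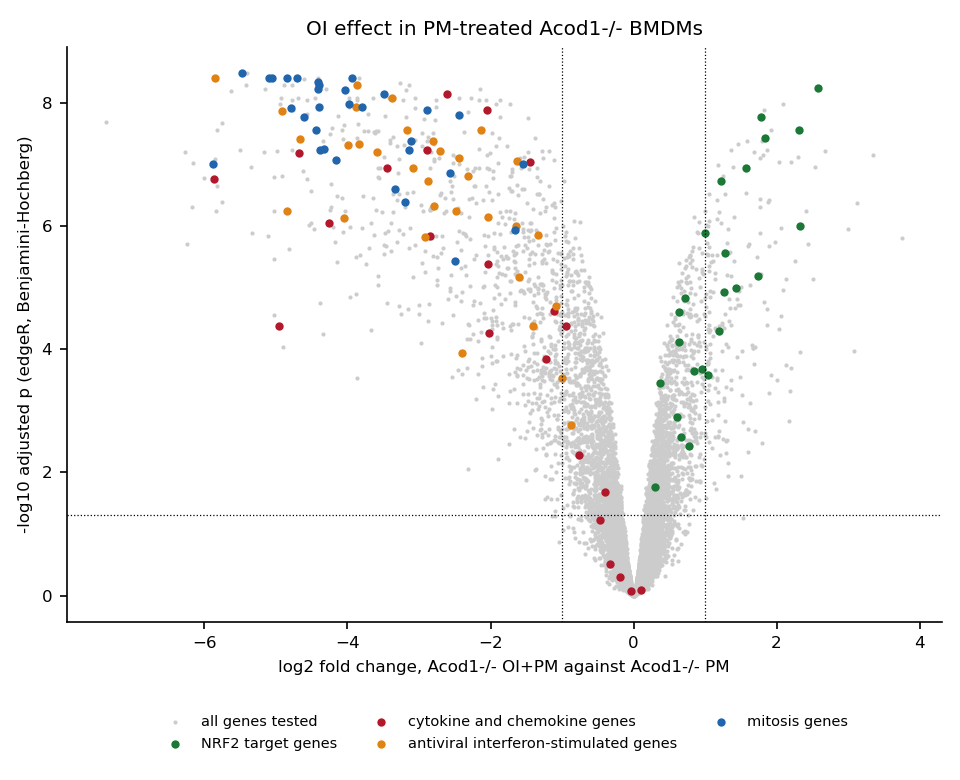
Log2 fold change between Acod1-/- OI+PM and Acod1-/- PM (x axis) against the -log10 adjusted p from edgeR (y axis) for the 10858 genes tested, with members of 4 gene lists in colour and the thresholds for a DEG as lines. The 803 DEGs to the left reach further from 0 than the 199 to the right, where the NRF2 target genes lie.

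The largest changes were taken among DEGs with an average of at least 5 CPM and no overlap between the groups. The 8 largest increases included transporters and glutathione genes. Slc16a9, a transporter of the monocarboxylate family, rose from 2.26 and 2.16 to 22.7 and 22.5, a log2 fold change of 3.35 (SE 0.15, edgeR adjusted p = 6.98e-08). Il1f9, which encodes the IL-1 family cytokine IL-36γ, rose from 9.59 and 8.49 to 58.8 and 57.2, a log2 fold change of 2.68 (SE 0.12, edgeR adjusted p = 6.17e-08). Cdkn1c, the CDK inhibitor p57, rose from 7.07 and 6.04 to 34.04 and 35.7, a log2 fold change of 2.41 (SE 0.14, edgeR adjusted p = 5.68e-07). In all 3 both OI+PM libraries lay several times above both PM libraries, where separation itself was a condition of the choice. Gclc and Slc7a11 are described with the NRF2 targets, and the others were, by log2 fold change, Slc6a9, a glycine transporter, at 2.53, Rtn4rl2, a Nogo receptor homologue, at 2.51 and Ighm at 3.12. Ighm, the μ heavy chain of immunoglobulin, stood at 11.8 and 10.9 with PM and 91.8 and 106 with OI+PM while the B cell marker Cd79a had no count in these libraries.

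Of the 8 largest decreases 7 ended below 1.5 CPM in both OI+PM libraries. These, Adgre4 and Ccl7 among them, passed the filter through PM alone and had to be lower, so their p-values do not support the direction. Adgre4, an adhesion receptor of the F4/80 family, had 452 and 455 counts with PM and 2 and 3 with OI+PM, a ratio of 174 with an exact 95% interval of 74.1 to 536 that covers counting error only. Its fitted log2 fold change was -7.37 (SE 0.27, edgeR adjusted p = 2.05e-08). Ccl7, a monocyte chemokine, fell from 17.4 and 18.4 to 0.391 and 0.215, a log2 fold change of -5.87 (SE 0.29, edgeR adjusted p = 1.74e-07). Rtp4, an interferon-induced chaperone of receptors, fell from 100.3 and 96.4 to 1.56 and 1.84, a log2 fold change of -5.85 (SE 0.13, edgeR adjusted p = 4.07e-09). Rtp4 was the 1 of the 8 that stayed above 1.5 CPM. The other 5, Pimreg, Cenpf, Pbk, Tk1 and Esco2, all serve DNA synthesis or cell division, with log2 fold changes from -6.27 to -5.62.

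NRF2 target genes rose together. All 24 listed were tested, 14 were called higher against a background of 1.83%, 0 were called lower, and all 24 were higher at an adjusted p of 0.05 or less, as 14.5% of all genes tested were, with a median log2 fold change of 1.12 against 0.003 over all genes tested. Gclc, the catalytic subunit of the enzyme that limits glutathione synthesis, rose from 117 and 122 to 738 and 692, a log2 fold change of 2.58 (SE 0.07, edgeR adjusted p = 5.89e-09). Gclm, its modifier subunit, rose from 457 and 454 to 1552 and 1577, a log2 fold change of 1.78 (SE 0.06, edgeR adjusted p = 1.69e-08). Slc7a11, the importer of cystine for the same pathway, rose from 77.2 and 82.1 to 419 and 379.7, a log2 fold change of 2.33 (SE 0.15, edgeR adjusted p = 1.00e-06). Transcripts of all 3 were higher in each OI+PM library than in either PM library. Nqo1, a quinone reductase, rose from 32.6 and 31.02 to 159 and 158, a log2 fold change of 2.32 (SE 0.09, edgeR adjusted p = 2.80e-08). Srxn1, the sulfiredoxin that repairs peroxiredoxins, rose from 472 and 434 to 1640.5 and 1606, a log2 fold change of 1.84 (SE 0.07, edgeR adjusted p = 3.71e-08). Hmox1, which breaks down heme, rose from 2619 and 2599.9 to 6493 and 6130.4, a log2 fold change of 1.27 (SE 0.09, edgeR adjusted p = 2.77e-06). PM alone moved them the same way, since all 24 had both PM libraries above both Control libraries, where 38.2% of genes tested did. Nqo1 stood at 2.28 and 2.15 in Control, so PM lay above Control and OI+PM above PM.

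Smaller changes in this list included those of the ferritin chains Ftl1 and Fth1, which store iron, at log2 fold changes of 0.61 and 0.66, and of Tkt, a transketolase of the pentose phosphate pathway, at 0.30. Of 7 regulators of NRF2 0 were called, against 9.23% of all genes tested, while 4 were higher and 1 lower at an adjusted p of 0.05 or less, against 14.5% and 20.4%, with a median log2 fold change of 0.45. Nfe2l2, which encodes NRF2, stood at 423 and 391 with PM and 336 and 339.6 with OI+PM, lower by 0.27 on the log2 scale (SE 0.06, edgeR adjusted p = 0.0039). Keap1 stood at 76.3 and 79.8 with PM and 78.1 and 79.1 with OI+PM, with overlap. Mafg, a small MAF partner of NRF2, stood at 126 and 133 with PM and 216 and 218 with OI+PM, a log2 fold change of 0.74 (SE 0.06, edgeR adjusted p = 8.38e-06). The targets thus rose while the transcripts of the factor and of its inhibitor differed by less than 2-fold.

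A short form of the antioxidant response element, TGACNNNGC, was searched on both strands of promoter windows of 300 bases, 250 before to 50 after the start, from RefSeq (GRCm38.p6). Of the tested NRF2 targets with a window, 8 of 20 held it, which is 40% against 17.4% of the 8592 genes tested that had a window and 14% of the 27025 genes in the table. The windows of Gclm (chr3:122245307-122245606, plus strand) and Srxn1 (chr2:152105274-152105573, plus strand) are printed because both genes rose more than 3-fold and hold a match, shown in capitals.
Gclm: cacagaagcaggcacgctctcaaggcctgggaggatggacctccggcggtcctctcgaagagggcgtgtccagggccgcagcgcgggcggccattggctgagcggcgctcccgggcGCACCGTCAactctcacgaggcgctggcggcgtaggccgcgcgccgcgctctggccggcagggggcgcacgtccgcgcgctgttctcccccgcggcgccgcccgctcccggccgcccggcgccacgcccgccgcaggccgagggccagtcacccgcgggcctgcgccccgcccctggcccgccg
Srxn1: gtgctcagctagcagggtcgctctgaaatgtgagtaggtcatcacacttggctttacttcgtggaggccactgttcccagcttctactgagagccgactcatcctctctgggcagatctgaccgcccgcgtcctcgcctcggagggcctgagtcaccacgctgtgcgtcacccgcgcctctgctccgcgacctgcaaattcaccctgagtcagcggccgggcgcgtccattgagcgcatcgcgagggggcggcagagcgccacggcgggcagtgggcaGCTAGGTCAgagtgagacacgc
The match began 134 bases before the start in Gclm and at base 29 after the start in Srxn1. A match describes these letters and does not show that a factor binds there.

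**Figure D2:**
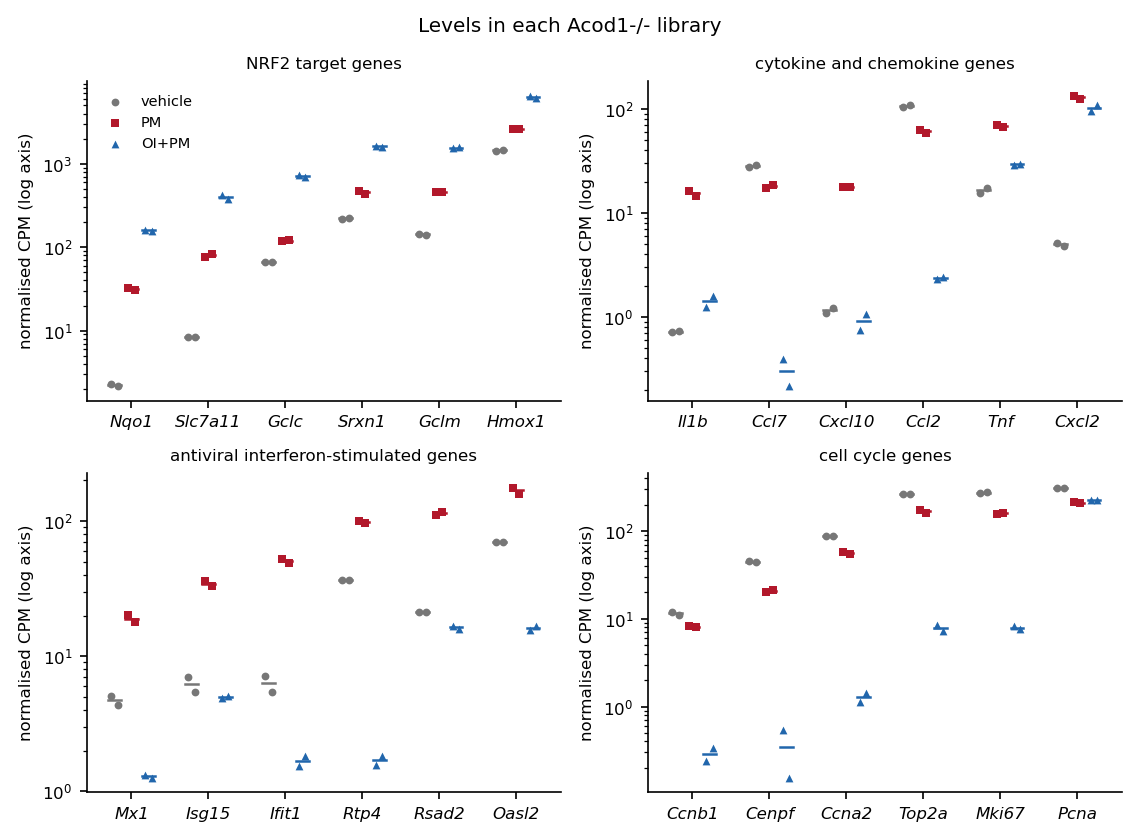
Normalised CPM on a log axis in each of the 6 Acod1-/- libraries (vehicle Control, PM and OI+PM), with points for libraries and short lines for the mean of 2, for genes of 4 kinds. NRF2 targets climb from vehicle to PM to OI+PM, whereas Ifit1, at 52.7 and 49.1 with PM, ends at 1.53 and 1.84 with OI+PM, below its vehicle level.

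Most cytokine and chemokine genes listed and tested fell. The list does not hold Il1f9, the IL-1 family cytokine gene described above, which was called higher. Of 33 listed 22 were tested, 14 were called lower against a background of 7.40%, 0 were called higher, and the median log2 fold change was -1.74. Il1b, which encodes IL-1β, fell from 16.3 and 14.6 to 1.23 and 1.596, a log2 fold change of -3.45 (SE 0.16, edgeR adjusted p = 1.16e-07). Tnf fell from 69.9 and 66.2 to 28.7 and 29.8, a log2 fold change of -1.22 (SE 0.15, edgeR adjusted p = 0.000145). Ccl2, a monocyte attractant, fell from 63.1 and 58.3 to 2.32 and 2.42, a log2 fold change of -4.68 (SE 0.20, edgeR adjusted p = 6.61e-08). In all 3 the groups were separate. Il1rn, which encodes the natural antagonist of the IL-1 receptor, fell too, from 253 and 249.5 to 61.4 and 59.8, a log2 fold change of -2.05 (SE 0.07, edgeR adjusted p = 1.34e-08). Il6 was below the limit for testing, at 0.939 and 1.06 with PM and 0.1204 and 0.0921 with OI+PM. The neutrophil attractants Cxcl1, Cxcl2 and Cxcl3 were not called, and Cxcl2 stood at 133 and 124 with PM and 95.7 and 109 with OI+PM, a log2 fold change of -0.33 (SE 0.23, edgeR adjusted p = 0.302). Cxcl3 stood at 31.7 and 31.8 with PM and 30.2 and 38.05 with OI+PM, with overlap.

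The fallen cytokine genes ended on either side of the level without PM. Of the 14 called lower, 5 had both OI+PM libraries above both Control libraries, among them Tnf, with 15.6 and 17.5 in Control, and Il1b, with 0.714 and 0.724. The other 9 had both below, among them Ccl2, with 104 and 109.5 in Control, and Ccl7, with 27.5 and 28.7. Over all genes tested, both OI+PM libraries lay below both Control libraries for 43.5% and above for 42.9%. Of the 803 DEGs that fell, 734 ended below and 48 above, and choosing genes for being low in OI+PM favours the former.

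NF-kB feedback and inflammatory enzyme genes had a smaller median change than the cytokine genes. Of 16 tested 6 were called lower against a background of 7.40%, 0 were called higher, 14 were lower at an adjusted p of 0.05 or less, as 20.4% of all genes tested were, and the median log2 fold change was -0.88. Nfkbia, the inhibitor that NF-kB itself induces, stood at 158 and 162 with PM and 83.1 and 87.2 with OI+PM, a log2 fold change of -0.91 (SE 0.12, edgeR adjusted p = 0.000157). Traf1, a signalling adaptor, fell from 7.77 and 6.96 to 1.62 and 1.78, a log2 fold change of -2.11 (SE 0.18, edgeR adjusted p = 9.79e-06). Icam1, an adhesion molecule, fell from 127 and 121 to 40.5 and 43.8, a log2 fold change of -1.56 (SE 0.08, edgeR adjusted p = 2.55e-07). Of the 6, 5 stayed above Control and Nfkbiz fell below it. Among 7 inflammasome genes the sensor Nlrp3 and Casp4, which senses lipopolysaccharide in the cytosol, were called lower, at log2 fold changes of -1.09 (SE 0.09, edgeR adjusted p = 6.06e-06) and -1.23 (SE 0.16, edgeR adjusted p = 0.000201). Casp1, which cleaves pro-IL-1β, overlapped, at 201 and 166 with PM and 163 and 171 with OI+PM.

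An NF-kB motif, GGGANNTTC on either strand, was held by 6 of 15 tested cytokine genes with a window, which is 40% against 4.52% of the 8592 genes tested that had a window and 4.47% of the 27025 genes in the table. Of the NF-kB feedback and inflammatory enzyme genes 2 of 13 held it (15.4%). Tnf (chr17:35201958-35202257, minus strand), which was called lower, and Cxcl2 (chr5:90903649-90903948, plus strand), which was not, are printed with their matches in capitals.
Tnf: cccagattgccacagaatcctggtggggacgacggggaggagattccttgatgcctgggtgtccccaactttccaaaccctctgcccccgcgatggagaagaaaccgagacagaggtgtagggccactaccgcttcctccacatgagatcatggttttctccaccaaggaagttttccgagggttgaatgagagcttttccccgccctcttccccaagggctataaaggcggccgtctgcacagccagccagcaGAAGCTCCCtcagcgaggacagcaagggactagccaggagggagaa
Cxcl2: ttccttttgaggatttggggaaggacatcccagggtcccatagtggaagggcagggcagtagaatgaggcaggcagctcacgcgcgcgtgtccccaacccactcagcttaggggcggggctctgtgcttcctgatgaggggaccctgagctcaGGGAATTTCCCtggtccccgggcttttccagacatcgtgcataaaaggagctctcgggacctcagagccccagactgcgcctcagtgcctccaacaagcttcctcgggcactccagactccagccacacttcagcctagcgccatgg
Both windows hold the motif, and the 2 matches in Cxcl2 overlap each other.

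Antiviral interferon-stimulated genes fell as a group. All 32 listed were tested, 30 were called lower against a background of 7.40%, all 32 were lower at an adjusted p of 0.05 or less, against 20.4% of all genes tested, and the median log2 fold change was -2.80. Ifit1, which binds viral RNA, fell from 52.7 and 49.1 to 1.53 and 1.84, a log2 fold change of -4.91 (SE 0.17, edgeR adjusted p = 1.37e-08). Isg15, a ubiquitin-like modifier, fell from 35.8 and 33.2 to 4.91 and 5.06, a log2 fold change of -2.79 (SE 0.16, edgeR adjusted p = 4.80e-07). Rsad2, which encodes viperin, fell from 111 and 117 to 16.9 and 15.8, a log2 fold change of -2.80 (SE 0.11, edgeR adjusted p = 4.16e-08). All 3 ended below Control, which held 7.17 and 5.46 for Ifit1, 7.002 and 5.41 for Isg15 and 21.3 and 21.4 for Rsad2. All 32 had both PM libraries above both Control libraries, where 38.2% of genes tested did, and all 30 called lower ended below Control. Isg20, at a log2 fold change of -0.88, and Eif2ak2, just short of a 2-fold decrease, were not called.

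Of 11 genes of interferon signalling tested, the 4 called lower, against a background of 7.40%, included Irf7, Stat2 and Irf9. Irf7, which amplifies interferon production, fell from 77.7 and 75.4 to 8.096 and 8.71, a log2 fold change of -3.19 (SE 0.11, edgeR adjusted p = 1.72e-08). Irf9, the DNA-binding partner of STAT2, fell from 72.5 and 69.3 to 24.7 and 26.4, a log2 fold change of -1.47 (SE 0.06, edgeR adjusted p = 6.32e-08). The receptor chains and kinases Ifnar1, Ifnar2, Tyk2 and Jak1 were not called, at log2 fold changes of -0.60, -0.14, -0.16 and -0.05. Ifnb1, which encodes interferon-β, was not tested, at 0.0587 and 0.0288 with PM and 0.0602 and 0 with OI+PM.

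The interferon-stimulated response element, GAAANNGAA on either strand, was held by 15 of 22 tested antiviral genes with a window, which is 68.2% against 8.85% of the 8592 genes tested that had a window and 9.76% of the 27025 genes in the table. Ifit1 (chr19:34640639-34640938, plus strand) and Isg15 (chr4:156200769-156201068, minus strand) are printed because each holds 3 matches, shown in capitals.
Ifit1: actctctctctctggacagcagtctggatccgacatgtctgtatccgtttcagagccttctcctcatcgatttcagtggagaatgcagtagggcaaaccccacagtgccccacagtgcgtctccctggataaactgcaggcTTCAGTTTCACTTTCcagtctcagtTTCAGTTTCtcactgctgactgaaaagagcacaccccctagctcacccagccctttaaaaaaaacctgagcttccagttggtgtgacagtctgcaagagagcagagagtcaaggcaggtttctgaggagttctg
Isg15: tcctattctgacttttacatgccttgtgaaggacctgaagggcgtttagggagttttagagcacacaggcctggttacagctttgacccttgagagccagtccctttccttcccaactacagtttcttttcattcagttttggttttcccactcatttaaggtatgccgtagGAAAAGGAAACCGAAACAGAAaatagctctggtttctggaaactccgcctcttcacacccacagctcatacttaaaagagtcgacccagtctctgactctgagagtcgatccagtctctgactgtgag
The matches began 109, 103 and 84 bases before the start in Ifit1, where the first pair overlaps, and 78, 72 and 66 bases before it in Isg15, where neighbours overlap.

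Mitosis genes had the lowest median of the gene lists with at least 4 members tested, and most DNA replication genes fell as well. All 31 mitosis genes listed were called lower against a background of 7.40%, with a median log2 fold change of -4.16. Of 32 DNA replication genes 27 were called lower and 0 higher, with a median of -1.93. Of the called genes, 11 mitosis and 6 replication genes had passed the filter through PM alone, so they had to be lower. Ccna2 was among these mitosis genes. Across the alternatives the mitosis median lay between -4.22 and -3.15. Ccna2, cyclin A2, fell from 58.4 and 55.1 to 1.11 and 1.44, a log2 fold change of -5.47 (SE 0.11, edgeR adjusted p = 3.33e-09). Top2a, a topoisomerase that untangles replicated DNA, fell from 175 and 163 to 8.49 and 7.27, a log2 fold change of -4.42 (SE 0.12, edgeR adjusted p = 6.00e-09). Rrm2, a subunit of ribonucleotide reductase, fell from 46.5 and 46.03 to 2.197 and 2.15, a log2 fold change of -4.41 (SE 0.10, edgeR adjusted p = 4.07e-09). In Control these stood at 86.9 and 86.95, at 267 and 263 and at 59.6 and 59.7, so PM lay below Control and OI+PM below PM. All 31 mitosis genes had both PM libraries below both Control libraries, where 39.1% of genes tested did.

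Pcna, Dnmt1, Cdt1, Rfc3 and Rfc4 were the replication genes not called. Pcna, the sliding clamp of DNA polymerases, had a mean of 210.2 ± 4.21 with PM and 227 ± 1.15 with OI+PM (SD over 2 libraries), a log2 fold change of 0.11 (SE 0.08, edgeR adjusted p = 0.341), while the 6 helicase subunits Mcm2 to Mcm7 had log2 fold changes from -3.65 to -1.83. Of 20 regulators of G1, 8 were called lower and 1, Cdkn1c, was called higher, against backgrounds of 7.40% and 1.83%. Of the 8, 2 had passed the filter through PM alone, E2f7 among them. Ccnd1, cyclin D1, fell from 205 and 234 to 74.5 and 67.8, a log2 fold change of -1.63 (SE 0.08, edgeR adjusted p = 2.19e-07). E2f7, a repressor of the E2F family, fell from 5.81 and 6.93 to 0.0903 and 0.184, a log2 fold change of -5.51 (SE 0.23, edgeR adjusted p = 5.99e-08). Cdkn1a, the p21 inhibitor that p53 induces, stood at 289 and 281 with PM and 306 and 311 with OI+PM, a log2 fold change of 0.11 (SE 0.07, edgeR adjusted p = 0.273). Of 12 p53 targets tested, 0 were called higher and 1, Sesn1, was called lower, a share near the backgrounds of 1.83% and 7.40%.

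The E2F motif, TTTCCCGC or TTTGGCGC on either strand, was held by 10 of 27 tested replication genes with a window, which is 37% against 3.7% of the 8592 genes tested that had a window and 1.8% of the 27025 genes in the table, and by 0 of 26 mitosis genes. Mcm5 (chr8:75109259-75109558, plus strand), a helicase subunit with a log2 fold change of -3.65, is printed with its match in capitals, 149 bases before the start.
Mcm5: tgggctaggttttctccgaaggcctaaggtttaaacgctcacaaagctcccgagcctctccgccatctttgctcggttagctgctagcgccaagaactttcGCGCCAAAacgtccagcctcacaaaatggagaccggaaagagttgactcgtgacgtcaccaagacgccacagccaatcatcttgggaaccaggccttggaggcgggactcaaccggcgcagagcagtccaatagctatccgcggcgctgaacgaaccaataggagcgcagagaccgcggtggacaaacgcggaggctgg

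Other stress genes were called in part. Of 19 genes of the ATF4 integrated stress response 5 were called higher and 1 lower, against backgrounds of 1.83% and 7.40% for this and the other stress lists, with a median log2 fold change of 0.58. Asns, asparagine synthetase, rose from 39.2 and 36.3 to 90.9 and 86.7, a log2 fold change of 1.23 (SE 0.13, edgeR adjusted p = 4.00e-05), and Control held 56.7 and 56.8, so PM lay below it and OI+PM above it. Atf4 stood at 188 and 181 with PM and 319 and 336 with OI+PM, a log2 fold change of 0.83 (SE 0.13, edgeR adjusted p = 0.000689). Nupr1, a stress-induced chromatin protein, fell from 10.8 and 9.84 to 3.52 and 4.88, a log2 fold change of -1.30 (SE 0.24, edgeR adjusted p = 0.00197). Of 13 heat shock genes tested the near-identical copies Hspa1a and Hspa1b were called higher, at log2 fold changes of 1.05 and 1.18, and reads may be split between them. Hspa1a fell short of the 2-fold threshold without PM replicate 2, at a log2 fold change of 0.99, and without OI+PM replicate 2, at 0.95. Of 4 aryl hydrocarbon receptor genes tested, the receptor Ahr rose from 9.56 and 9.696 to 24.9 and 22.1, a log2 fold change of 1.29 (SE 0.15, edgeR adjusted p = 8.37e-05), and its target Tiparp rose from 69.6 and 68.6 to 156 and 154, a log2 fold change of 1.17 (SE 0.07, edgeR adjusted p = 7.87e-07). Ahrr and Arnt were not called, at log2 fold changes of 0.25 and 0.08.

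Receptors for particles and microbes moved both ways. Of 16 tested 9 were called lower and 2 higher, against 7.40% and 1.83% of all genes tested, with a median log2 fold change of -1.34. Marco, a scavenger receptor for particles, fell from 79.99 and 77.1 to 2.92 and 3.68, a log2 fold change of -4.57 (SE 0.16, edgeR adjusted p = 1.54e-08). Clec4e, which encodes Mincle, fell from 327 and 286 to 38.97 and 45.9, a log2 fold change of -2.85 (SE 0.17, edgeR adjusted p = 5.35e-07). Tlr2 fell from 121 and 110.0 to 17.5 and 15.9, a log2 fold change of -2.79 (SE 0.11, edgeR adjusted p = 4.20e-08), where Control held 17.3 and 17.2. Each was separate between groups. Clec7a, the β-glucan receptor Dectin-1, rose from 562 and 527 to 1406 and 1389.5, a log2 fold change of 1.36 (SE 0.06, edgeR adjusted p = 5.81e-08). Clec4n, which encodes Dectin-2, rose from 65.9 and 61.1 to 156 and 164, a log2 fold change of 1.33 (SE 0.12, edgeR adjusted p = 1.53e-05). Tlr4, the lipopolysaccharide receptor, was not called, at 135.7 and 141.0 with PM and 135.5 and 130.1 with OI+PM, a log2 fold change of -0.06 (SE 0.13, edgeR adjusted p = 0.775).

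Complement, MHC class II and alternative activation genes included decreases, where 7.40% of all genes tested were called lower. Of 8 complement genes tested 5 were called lower, including all 3 chains of C1q, of which C1qa fell from 173 and 171 to 15.4 and 17.9, a log2 fold change of -3.37 (SE 0.13, edgeR adjusted p = 3.58e-08). C3, the central complement component, fell from 98.1 and 93.8 to 9.51 and 8.78, a log2 fold change of -3.39 (SE 0.10, edgeR adjusted p = 8.38e-09). Of 5 MHC class II genes tested 3 were called lower, H2-Aa, H2-Ab1 and Cd74, of which 2 had passed the filter through PM alone. Of 11 alternative activation genes 6 were tested, and 4 were called lower and 0 higher. Of those 2 had passed through PM alone. With CPM above 1.5 in all 4 libraries the median log2 fold change went from -1.90 to -0.66 for MHC class II and from -2.22 to -1.06 for alternative activation. Mrc1, the mannose receptor, fell from 272 and 288 to 79.6 and 72.3, a log2 fold change of -1.88 (SE 0.17, edgeR adjusted p = 1.30e-05).

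Lipid and matrix genes were mixed. Of 14 LXR target and lipid handling genes tested 2 were called lower and 1 higher, against 7.40% and 1.83% of all genes tested. Their median log2 fold change was -0.16. Abca1 and Nr1h3 were those called lower and Cd36 the one called higher. Abca1, the exporter of cholesterol, fell from 244 and 260.1 to 12.9 and 13.9, a log2 fold change of -4.23 (SE 0.22, edgeR adjusted p = 2.07e-07). Nr1h3, which encodes LXRα, fell from 35.2 and 30.4 to 10.4 and 9.05, a log2 fold change of -1.75 (SE 0.13, edgeR adjusted p = 3.32e-06). Both ended below Control. Abcg1, another cholesterol exporter, was not called, at 81.2 and 80.3 with PM and 65.8 and 64.8 with OI+PM. Cd36, a receptor for oxidised lipids, rose from 7713 and 7529.8 to 17381 and 17382, a log2 fold change of 1.19 (SE 0.07, edgeR adjusted p = 5.87e-07). Of 22 sterol synthesis genes tested 0 were called, with 4 higher and 4 lower at an adjusted p of 0.05 or less in edgeR, where 14.5% and 20.4% of all genes tested were. A sterol response element, TCACNCCAC on either strand, was held by 1 of 15 of them with a window, against 1.41% of genes tested that had one. Of 7 fatty acid synthesis genes tested the acetyl-CoA synthetase Acss2 was called higher, at a log2 fold change of 1.93 (SE 0.07, edgeR adjusted p = 2.80e-08). Of 8 matrix metalloproteinases and inhibitors tested 4 were called lower and 1 higher, against 7.40% and 1.83% of all genes tested. Mmp9 fell from 1830.5 and 1924 to 333 and 359.9, a log2 fold change of -2.44 (SE 0.07, edgeR adjusted p = 8.38e-09). Mmp12, the macrophage elastase, rose from 12626 and 11984 to 29113 and 29488, a log2 fold change of 1.25 (SE 0.06, edgeR adjusted p = 1.56e-07). Pla2g4a, the phospholipase that releases arachidonic acid, rose from 47.2 and 50.4 to 136 and 133, a log2 fold change of 1.46 (SE 0.06, edgeR adjusted p = 4.76e-08), the 1 call among 9 eicosanoid genes tested, a share near the 9.23% over all genes.

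In the lists for central metabolism, lysosomes and metals 0 or 1 genes each were called, against a background of 9.23%. In the list of 20 TCA cycle genes Acod1 was the 1 called, and the others had log2 fold changes between -0.63 and 0.23. Sdha, a subunit of succinate dehydrogenase, stood at 303 and 282 with PM and 245 and 242 with OI+PM, a log2 fold change of -0.27 (SE 0.06, edgeR adjusted p = 0.00586). Of 19 glycolysis and HIF-1 genes 0 were called, with 4 higher and 7 lower at an adjusted p of 0.05 or less in edgeR, against the same 14.5% and 20.4%. Of 18 lysosome and autophagy genes the 1 called was Gabarapl1, at a log2 fold change of 1.01, and of 10 metallothionein and iron genes tested the 1 called was the zinc exporter Slc30a1, at a log2 fold change of 1.03. The metal list had 5 genes higher and 2 lower at that adjusted p, with a median log2 fold change of 0.51. Both calls are near the threshold, since Gabarapl1 had 0.99 without PM replicate 2 and Slc30a1 0.98 without PM replicate 1.

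**Figure D3:**
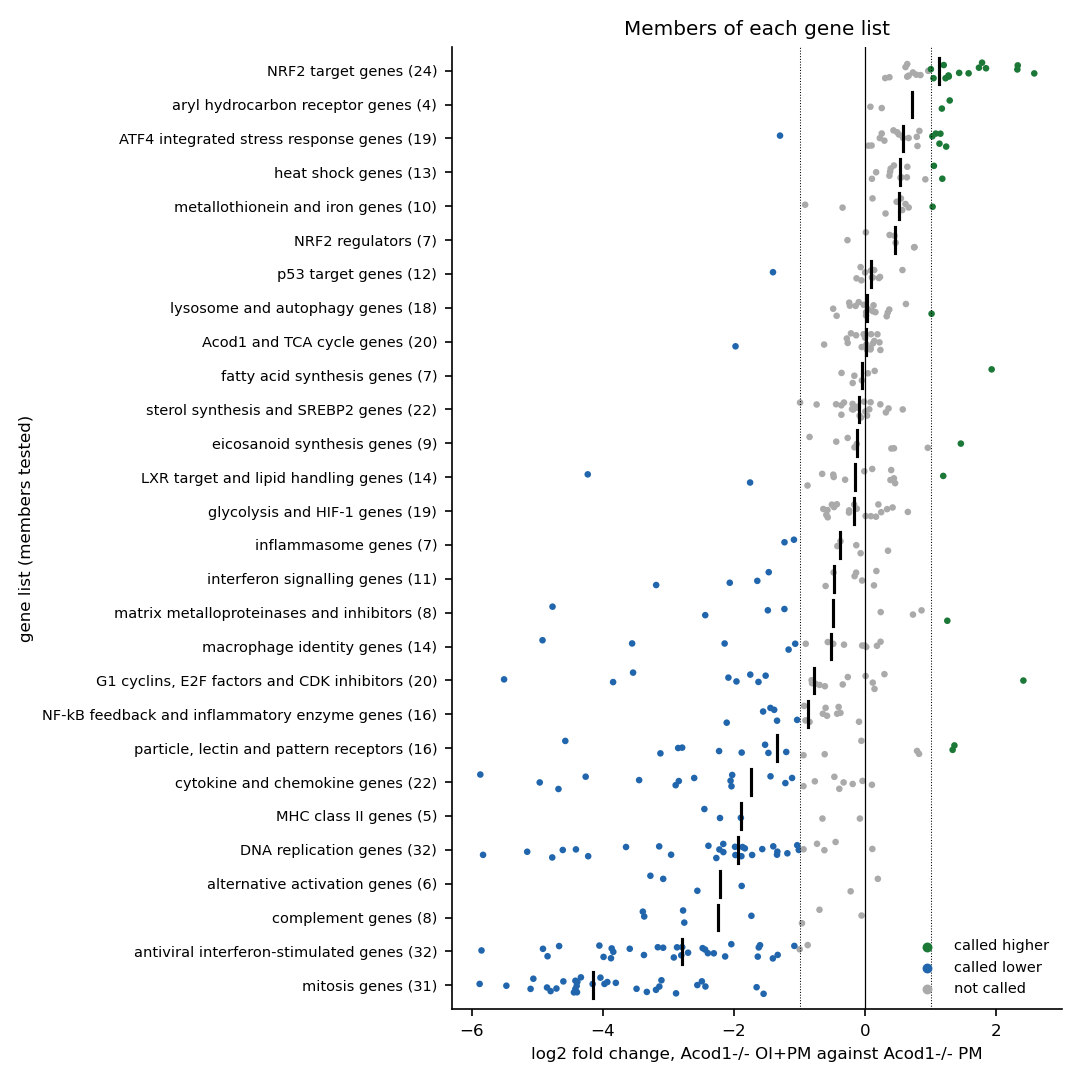
Log2 fold change between Acod1-/- OI+PM and Acod1-/- PM for each tested member (points) of the gene lists with at least 4 members tested, ordered by median, with colour for the call and the number tested in brackets. Mitosis genes have the lowest median, -4.16, and NRF2 target genes the highest, 1.12. The mitosis list includes 11 genes that passed the filter through PM alone, and its median reached -3.15 under an alternative.

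The exons of some genes named above overlap those of other genes, and whether the counts used strand is not given in the sources used here, so reads of the pairs may not be separated. They are Acss2, Ahr, Ccna2, Ccnd1, Cd3e, Cd74, Cdkn1a, Cdkn1c, Csf1r, Cx3cr1, Ddit3, E2f7, Eif2ak2, Ftl1, Gabarapl1, Gclm, Hspa1a, Icam1, Ifnar2, Il1b, Irf7, Irf9, Jak1, Keap1, Mafg, Mcm7, Mmp12, Mt2, Nr1h3, Rfc4, Rtp4, Slc16a9, Slc30a1, Slc6a9, Tiparp, Tk1, Tkt, Top2a and Tyk2.

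The same treatment of WT BMDMs asks whether the effect of OI differs when cells carry Acod1. In WT 1102 of the 10858 genes were DEGs, 238 higher and 864 lower. Both genotypes called 886, all in the same direction, which is 88.4% of the DEGs in Acod1-/- and 80.4% of those in WT. The comparisons share no library. As a description over genes, which do not stand for replicates, the log2 fold changes of WT and Acod1-/- had a Pearson's r of 0.960.

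The difference itself was tested as an interaction. edgeR called 0 of 10858 genes (0%), the smallest adjusted p was 0.0887, and 685 genes (6.31%) had an unadjusted p under 0.05, while DESeq2 called 5, Nanos1, Fpr1, Il1b, Hal and H2-Q6. For 687 of the 1002 DEGs the 95% interval of the difference lay within 1 either way on the log2 scale, as it did for 10040 of all 10858 genes, and for the other DEGs it reached a 2-fold difference or more. The difference was 0.00 (95% interval -0.24 to 0.24) for Nqo1. It was 0.12 (95% interval -0.36 to 0.60) for Tnf. For Il1b it was -1.27 (95% interval -1.79 to -0.74), with an edgeR adjusted p of 0.195. The interval lay within 1 for all 24 NRF2 targets, whose median log2 fold change was 1.12 in Acod1-/- and 1.13 in WT. It did so for 13 of 19 ATF4 genes, with medians of 0.58 and 1.07, and for 23 of 31 mitosis genes, with -4.16 and -3.73.

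The count of 0 changed with the libraries used. Without WT OI+PM replicate 1 edgeR called 37 genes, 26 with a positive and 11 with a negative difference, including the list members Cd14, Cd163, Ddit3, Ighm, Il1b, Mmp14, Mt2, Rtp4 and Socs3. The WT OI+PM replicates differed with an SD across genes of 0.369, against 0.152 for Acod1-/- OI+PM. Across genes the difference between replicates followed exonic length in all 4 groups, with a rank correlation (Spearman) of -0.62 in WT OI+PM, -0.61 in WT PM, -0.3 in Acod1-/- OI+PM and 0.37 in Acod1-/- PM, where the sign depends on the numbering of replicates. With an offset for length edgeR called 4. Without WT PM replicate 1 it called 1, and leaving out any of the other 6 libraries alone gave 0.

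**Figure D4:**
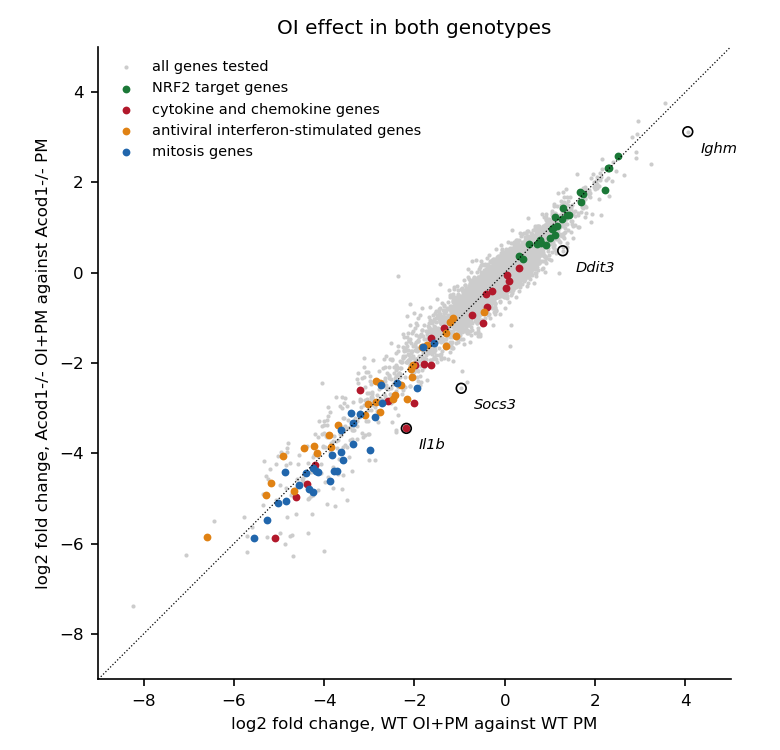
Log2 fold change of OI+PM against PM in WT (x axis) and in Acod1-/- (y axis) for the 10858 genes tested, with members of gene lists in colour and a line of equal effects. The points follow the line, with a Pearson's r of 0.960, and the labelled genes Il1b, Socs3, Ighm and Ddit3 lie below it. They were picked for display, and edgeR called none of them in the interaction test. Other genes lie above the line, among them Fpr1.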

How the data were processed

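RNA from BMDMs was sequenced as 50 bp single-end reads, per the study's methods. The deposited files hold unnormalised read counts for each gene, which the authors made by aligning reads to GRCm38 with STAR 2.5.3a and counting with featureCounts, whose version, annotation release and strand setting are not given in the sources used here. FastQC 0.11.5 and Picard 2.9.0 are named in the submitters' processing notes. Each library was grouped by its labels.

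The counts of all 12 libraries were fitted with group means in edgeR 4.0.16 (R 4.3.3, limma 3.58.1) with TMM scaling and the quasi-likelihood test, and p-values were adjusted by Benjamini-Hochberg over the 10858 genes tested. The interaction is the OI effect in Acod1-/- minus that in WT. Intervals follow from the fit's standard errors. DESeq2 1.42.0, other scalings, filters and thresholds, an offset for gene length, a block on the replicate number and fits that each omit 1 library were alternatives. The procedure was tested on simulated data.

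The comparison, the 32 gene lists and the promoter motifs were chosen with earlier results of these data known. Genes were named by rule. The rule took those the study measures, and the 8 largest increases and decreases among DEGs with an average of at least 5 CPM and no overlap between the groups. From each list it took the key members, the 5 smallest p and up to 3 called members that moved against the others. Other genes named were chosen after their values were seen. A few genes of the lists are counted in them but not reported here by name.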

Additional observations from a re-analysis of the deposited data

How the results depend on the processing

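The number of DEGs, 1002, lay between 995 and 998 when each of the 4 libraries was left out. It was 635 (492 lower) with CPM above 1.5 required in all 4 libraries, a filter that removes genes near 0 after OI, 657 (93 higher) when the 2-fold change itself was tested with glmTreat, and 3787 (1571 higher, 2216 lower) with no fold threshold. Asking for at least 10 counts in total gave 1463 (303 higher, 1160 lower) of 15031 tested. For the interaction, where edgeR called 0, DESeq2 called 5 (3 positive, 2 negative) on 12 libraries and 3 on the 8 compared, the gene length offset 4 (3 and 1), and leaving out a library 0 to 37 (0 to 26 positive, 0 to 11 negative). The cause was not tested. The labels number the replicates 1 and 2 without saying what they share, and the replicate differences had a correlation across genes of -0.099 between the 2 Acod1-/- groups compared and 0.766 between the 2 WT groups, with -0.452 to 0.283 across genotypes. With a replicate block 1006 DEGs and 1 interaction (positive) were called, with 1172 interactions at an unadjusted p under 0.05 against 685, and 4 (3 and 1) with the length offset as well.

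Of 1936 values of 115 named genes under an alternative, 1877 kept direction and call. Reversals were all of log2 fold changes near 0. Keap1 had -0.059 with total count scaling, -0.001 with CPM above 1.5 in all 4 libraries and -0.024 to 0.043 when a library was left out. Cd68 had 0.009 with at least 10 counts and -0.076 to 0.062 when a library was left out. Leaving out a library gave -0.269 to 0.009 for Casp1 and -0.075 to 0.261 for Cxcl3. Calls near the threshold were lost without 1 library. Without PM replicate 2, Gabarapl1 had 0.99, Hspa1a 0.99 and S100a8 1.21 (edgeR adjusted p = 0.0626). Slc30a1 had 0.98 without PM replicate 1, and Hspa1a 0.95 without OI+PM replicate 2. The list median kept its sign under every alternative for 24 of 28 lists. Genes near 0 after OI, such as Adgre4, have folds limited by depth.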
